A study of Mus musculus with 20 samples.

Results

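The genes described here encode receptors and other proteins that mature B cells use to find their place in lymphoid tissue, to survive and to sense antibody and complement. They are *Fcmr*, *Ccr6*, *Cxcr5*, *Fcer2a*, *Cr2*, *Tnfrsf13c*, *Vpreb3*, *Fcrla*, *Ly6d* and *Siglecg*, 10 of the 31093 gene names on the array. The set was chosen by name, and selected on the differences between 7 Gy and 0 Gy that earlier results of these data had shown, so those differences are given below as a description, without a test. Every probe with one of these gene names was used, 13 in all, of which 12 passed the filters on dim and flat probes. Each of the 10 genes had at least 1 tested probe, 7 had a single probe and 3 (*Cr2*, *Tnfrsf13c* and *Siglecg*) had 2. Where a gene had 2 probes, the brighter one stands for it and the other is given beside it.

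The RNA came from peripheral blood and was hybridised to 20 one-colour Agilent arrays, 1 listed for each mouse. The mice were young adult male littermates from heterozygous parents, either wild type C57BL/6 (labelled WT) or homozygous for the *Il10*tm1Cgn allele on the same background (labelled Il10-/-). They received whole-body X-rays at 7 Gy or a sham exposure (0 Gy), and blood was taken by cardiac puncture 24 h later, which gives 4 groups of 5 arrays. Mice lacking interleukin 10, a cytokine that restrains inflammation, are used as a model of inflammatory bowel disease. The allele is carried in every cell, and the RNA came from whole blood without sorting, so fewer B cells and less RNA per B cell cannot be told apart.

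Mature B cells circulate between blood and lymphoid follicles. The chemokine receptor CXCR5 directs them to the follicle, where its ligand CXCL13 is made, and CCR6, the receptor of CCL20, guides them at mucosal sites and within activated tissue. BAFF receptor (*Tnfrsf13c*) carries the signal of the cytokine BAFF that keeps mature B cells alive, while the receptors for IgM (*Fcmr*), for IgE (*Fcer2a*, CD23) and for complement fragments (*Cr2*, CD21) bind antibody and opsonised antigen. Siglec-G damps signalling by the B-cell receptor, and Ly6D marks cells committed to the B lineage. VPREB3 and FCRLA are not surface receptors in the strict sense, since both are held inside the cell.

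Values are log2 processed signal minus the median of the array, so that 0 is the signal of the median probe, and levels of different probes are not compared. Several features of the arrays bear on the results. The *Il10* probe went against the labels: it was not well above background on any array labelled WT, with means of −1.54 and −1.85, and it was well above on all 10 arrays labelled Il10-/-, with means of 2.75 ± 0.31 at 0 Gy and 2.71 ± 0.62 at 7 Gy (SD, n = 5). What the probe measures in the targeted allele is not given in the sources used here, and each direction between genotypes below rests on the labels. In every group, replicates 1 and 2 were far closer to each other (SD of their differences 0.26 to 0.33 over features well above background) than the other 36 pairs within groups (0.49 to 1.39). The spread of their differences was near that of repeated spots within an array, which does not tell separate mice from repeat arrays of 1 RNA. They were kept as 2 samples because the labels name them so, and the main genotype tests are also given with the pair averaged. If they share a source, the p-values below are too small, and the SD, SE and intervals too narrow. A pair of arrays was weak: replicate 5 of the unirradiated mice labelled WT had 29.9% of spots well above background and replicate 3 of the irradiated mice labelled Il10-/- had 34.6%. Liver and heart muscle transcripts also differed widely among arrays. For mice labelled WT, the mean of 15 liver markers spanned 0.46 to 1.86 at 0 Gy and 2.79 to 10.87 at 7 Gy, and for mice labelled Il10-/- it spanned 2.21 to 9.11 and 1.74 to 9.10. The mean of 9 heart markers spanned −0.28 to 2.63, 0.25 to 7.86, −0.54 to 3.46 and 1.64 to 7.72 in the same order. In every group both means were near equal in replicates 1 and 2, as in irradiated mice labelled WT (liver 10.81 and 10.87, heart 7.86 and 7.85). The part of these transcripts in the results below was not tested.

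In both genotypes the genes were lower 24 h after 7 Gy on every probe. The signal of the 10 genes was lower by a mean of 3.88 on the log2 scale in mice labelled WT (mean difference −3.88) and by 4.13 in mice labelled Il10-/- (mean difference −4.13), and their medians were −4.16 and −4.38 against −0.02 and −0.10 over all 18587 features tested. The values for mice labelled Il10-/- include *Fcer2a* and *Tnfrsf13c* at their read signal, though their differences there are only bounds, given below. All 10 met the call used here (limma p below 0.001 and a Benjamini-Hochberg adjusted rate below 10%) in each genotype, also without either weak array, where 2.32% of all features were called lower in mice labelled WT and 5.87% in those labelled Il10-/-. For all 10, each of the 5 irradiated arrays lay below each of the 5 unirradiated arrays in both genotypes, as did 4.26% and 10.9% of all features. The genes were chosen for this response, so nothing is read from these counts. Within slides, each of which held 1 array of every group, the irradiated array was thus the lower on 5 of 5 slides for every gene and genotype. That follows from the lack of overlap and adds nothing to it.

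**Figure D1:**
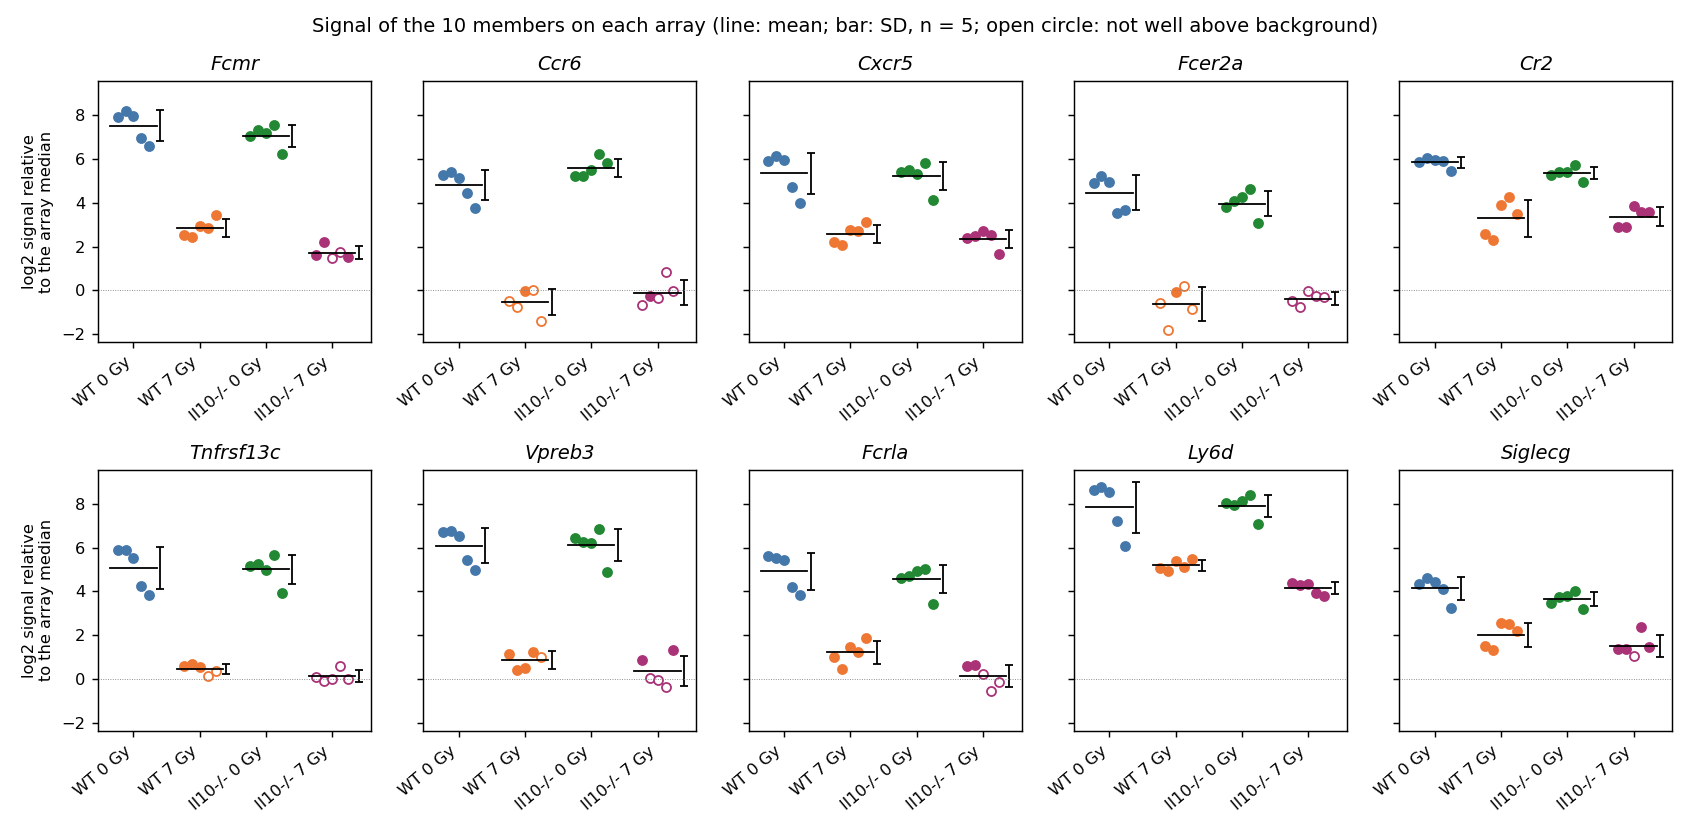
Log2 signal relative to the array median (vertical axis) of the 10 genes on each of the 20 arrays, in replicate order within the 4 groups. Filled circles are well above background, open circles are not, lines are means and bars SD (n = 5); every irradiated array lies below every unirradiated array of its genotype, and for Ccr6 and Fcer2a at most 1 circle of an irradiated group is filled.

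The size of the difference was not even across the set. *Fcmr*, *Ccr6* and *Vpreb3* were lower by more than 4 log2 units in both genotypes. *Fcer2a* and *Tnfrsf13c* were so in mice labelled WT (−5.09 and −4.61), and their differences in mice labelled Il10-/- are bounds, given below. *Cxcr5*, *Cr2* and *Siglecg* were lower by 2 to 3. The differences of *Fcrla* and *Ly6d* were −3.71 and −2.66 in mice labelled WT and −4.41 and −3.78 in those labelled Il10-/-.

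**Figure D2:**
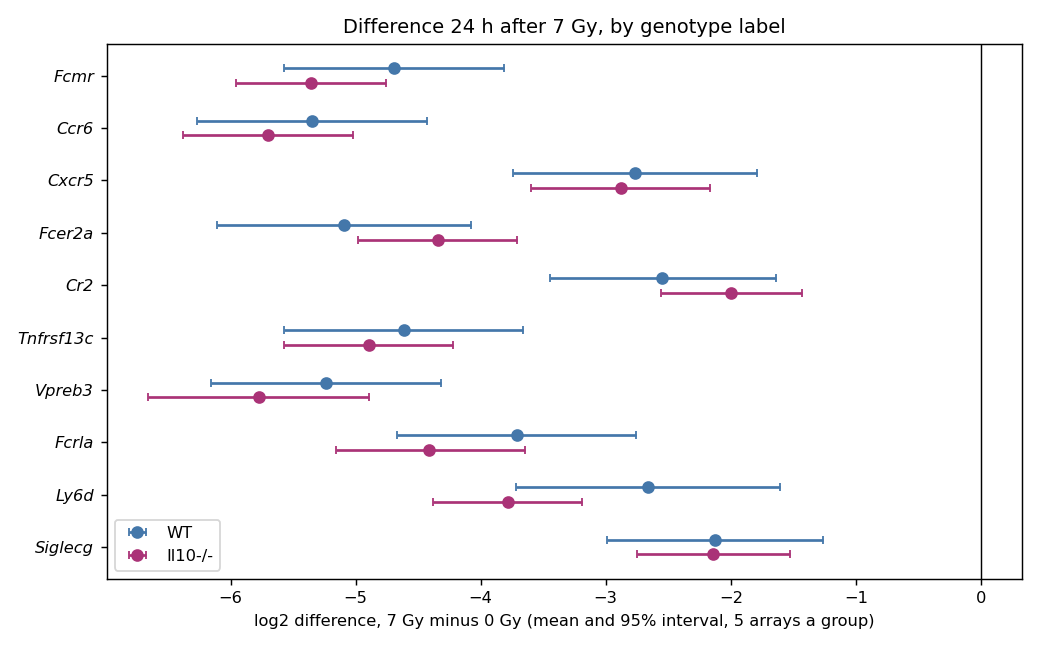
Log2 difference between 7 Gy and 0 Gy (horizontal axis) of each gene, by genotype label, as mean and 95% interval (5 arrays a group). Differences run from −5.77 (Vpreb3, Il10-/-) to −2.0 (Cr2, Il10-/-), and the intervals of the 2 genotypes overlap for all 10 genes. Fcer2a and Tnfrsf13c in mice labelled Il10-/- are drawn at their read signal, though no irradiated array there was well above background.

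Both chemokine receptors were lower, *Ccr6* to background and *Cxcr5* to a level still measured on all arrays. The *Ccr6* probe (mm9, chr17:8449933-8449992) read 5.28, 5.42, 5.14, 4.43 and 3.78 in replicates 1 to 5 of the unirradiated mice labelled WT, and −0.48, −0.78, −0.02, −0.01 and −1.42 in the irradiated ones. On the arrays labelled Il10-/- it read 5.21, 5.23, 5.49, 6.22 and 5.83 without irradiation and −0.67, −0.28, −0.37, 0.82 and −0.03 after it. The irradiated arrays thus lay near or below the median probe, and only 1 of 5 was well above background in each genotype. The differences were −5.35 (SE 0.43), which is 40.8-fold, and −5.70 (SE 0.31), which is 52-fold. *Cxcr5* (chr9:44320071-44320130) averaged 5.34 ± 0.94 and 2.58 ± 0.42 (SD, n = 5) in mice labelled WT, and 5.24 ± 0.64 and 2.36 ± 0.42 in those labelled Il10-/-. It stayed well above background on all 20 arrays, and its differences were −2.77 (SE 0.46) and −2.88 (SE 0.33), 6.81-fold and 7.38-fold.

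The 10 tested ligands and partners of the set had medians of −0.66 and −0.65. In mice labelled WT 2 were called higher (*Cxcl13* and *C3*). In those labelled Il10-/- 2 were called higher (*Cxcl13* and *Cd81*) and 1 lower (*Tnfrsf13b*). Of all 18587 features, 832 and 611 were called higher in the same order, and 431 and 1091 lower. *Cxcl13*, the CXCR5 ligand, was called higher after irradiation, by 4.26 for the WT label and 2.48 for the Il10-/- label. It read 3.27, 3.31, 3.61, −0.83 and −1.75 in the unirradiated mice labelled WT, and 5.85, 5.99, 6.19, 4.94 and 5.96 in the irradiated ones. Replicates 4 and 5 without irradiation were not well above background, so the difference in mice labelled WT rests on a wide range, and the call was lost when either was left out, with values of 3.45 to 4.79 over the 10 arrays left out in turn. The arrays labelled Il10-/- read 3.08, 3.25, 3.07, 2.59 and 3.02 without irradiation and 5.06, 5.06, 5.66, 5.10 and 6.54 after it, with no overlap, a call that was lost only in the fit of all 4 groups together among the 9 alternatives. *Ccl20*, the CCR6 ligand, exceeded background well on 1 array of the 20.

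BAFF receptor was lower to near background. The brighter *Tnfrsf13c* probe (chr15:82052203-82052262) read 5.88, 5.88, 5.51, 4.27 and 3.85 in unirradiated and 0.59, 0.68, 0.55, 0.12 and 0.38 in irradiated mice labelled WT. For the Il10-/- label it read 5.18, 5.28, 4.99, 5.67 and 3.94, and then 0.07, −0.09, 0.00, 0.61 and 0.00. None of the latter 5 was well above background, so the level there is only an approximate bound. Each such array was set at the higher of its reading and the lowest signal of any probe well above background on it. The gene was then 20.6-fold lower. This and the bounds below are not strict minima: *Fcmr* read 1.76 on replicate 4 without being well above background, where that lowest signal was 1.05. In mice labelled WT, where 3 of 5 irradiated arrays were well above background, the difference of *Tnfrsf13c* was −4.61 (SE 0.45), 24.5-fold. The second probe (chr15:82054616-82054675) was dimmer, with means of 1.01 and −0.81 in mice labelled WT and 0.62 and −0.83 in those labelled Il10-/-. It was well above background on only 3 of 5 unirradiated arrays labelled WT, and its differences of −1.82 and −1.45 were smaller than those of the first. They were called in mice labelled WT and not in those labelled Il10-/-, where the approximate bound was 1.11-fold lower. *Tnfsf13b*, which encodes BAFF, was not called in either genotype (1.01, adjusted p = 0.164, and 0.29, adjusted p = 0.592, limma). *Tnfrsf13b*, the related receptor TACI, was called lower in mice labelled Il10-/- (−0.98, adjusted p = 0.00678) and not in those labelled WT (−0.94, adjusted p = 0.131), a difference between genotypes of −0.03 (adjusted p = 0.989). The call was lost with the slide block, in 1 fit of all groups, when replicates 1 and 2 were averaged, and when any of 8 of the 10 arrays was left out.

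Of the receptors for antibody and complement, the IgM receptor and CD23 were lower by more than CD21 was. *Fcmr* (chr1:132777256-132777315) read 7.94, 8.18, 7.98, 6.97 and 6.59 in unirradiated and 2.53, 2.44, 2.92, 2.86 and 3.45 in irradiated mice labelled WT. Among mice labelled Il10-/- it read 7.05, 7.31, 7.17, 7.57 and 6.24, and then 1.63, 2.2, 1.46, 1.76 and 1.5, the last group with 3 of 5 arrays well above background. The differences were −4.69 (SE 0.41), 25.8-fold, and −5.36 (SE 0.28), 41-fold. The irradiated arrays of the genotypes did not overlap, which is taken up below.

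*Fcer2a* (chr8:3682343-3682402) averaged 4.47 ± 0.79 and −0.63 ± 0.79 in mice labelled WT and 3.96 ± 0.58 and −0.38 ± 0.28 in those labelled Il10-/- (SD, n = 5). After irradiation it was well above background on 1 of 5 arrays labelled WT and 0 of 5 labelled Il10-/-. The difference was −5.09 (SE 0.48), 34.2-fold, in mice labelled WT. In those labelled Il10-/- the approximate bound, taken as for *Tnfrsf13c*, was 11.6-fold lower.

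*Cr2* differed from these in that the brighter probe (chr1:196965532-196965591) stayed well above background on all 20 arrays. It read 5.87, 6.04, 5.98, 5.90 and 5.44 in unirradiated and 2.56, 2.29, 3.88, 4.27 and 3.49 in irradiated mice labelled WT. Arrays labelled Il10-/- gave 5.29, 5.42, 5.42, 5.71 and 4.97, and then 2.91, 2.88, 3.84, 3.59 and 3.60. The spread was low before irradiation (SD 0.24 and 0.27) and, in mice labelled WT, the widest of all 10 genes after it (SD 0.85). The differences were −2.55 (SE 0.43), 5.85-fold, and −2.0 (SE 0.26), 3.99-fold, and those of the second probe (chr1:196963012-196963071) were −2.96 and −3.05, with 2 of 5 and 1 of 5 irradiated arrays well above background. *C3*, whose cleavage gives the fragments that CD21 binds, was called higher in mice labelled WT (4.32), a call that was lost under 5 of 9 alternatives and without replicate 4 or 5 at 0 Gy or replicate 3 at 7 Gy (3.63 to 5.20 over the arrays left out in turn). *Cd81*, a partner of CD21 on the cell surface, was called higher in mice labelled Il10-/- (1.33, adjusted p = 0.00769) and not in those labelled WT (1.38, adjusted p = 0.0194, limma), and the call was lost with the slide block, when replicates 1 and 2 were averaged, and when any of 7 of the 10 arrays was left out. *C3* is also a liver product. On irradiated replicates 1 to 5 labelled WT it read 12.34, 12.26, 9.86, 6.05 and 7.49. The mean of the liver markers there was 10.81, 10.87, 7.99, 2.79 and 5.22. The part of liver RNA in the difference of *C3* was not tested.

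*Siglecg*, the inhibitory lectin, had the smallest difference in mice labelled WT. The brighter probe, for which no position is given in the array files, averaged 4.14 ± 0.53 and 2.01 ± 0.57 in mice labelled WT and 3.66 ± 0.32 and 1.52 ± 0.51 in those labelled Il10-/- (SD, n = 5). These are differences of −2.13 (SE 0.41) and −2.14 (SE 0.28), 4.37-fold and 4.41-fold. The second probe (mm9, chr7:52045775-52045834) did not pass the background filter (which removes probes that the software marked on at least 25% of arrays). It was well above background on none of the irradiated arrays. Its approximate bounds, taken as for *Tnfrsf13c*, were 2.8-fold lower in mice labelled WT and 1.54-fold lower in those labelled Il10-/-. Both 60-base probes are printed, as in the array files, to show that their sequences differ. Their places in the transcript were not checked.
*Siglecg*, brighter probe: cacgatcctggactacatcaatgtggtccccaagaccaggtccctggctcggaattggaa
*Siglecg*, second probe: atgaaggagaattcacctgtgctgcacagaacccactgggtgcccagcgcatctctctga

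*Ly6d*, a GPI-anchored protein, remained bright. Its probe (chr15:74592551-74592610) read 8.66, 8.77, 8.54, 7.24 and 6.09 in unirradiated and 5.06, 4.92, 5.41, 5.11 and 5.49 in irradiated mice labelled WT. With the Il10-/- label it read 8.04, 7.96, 8.13, 8.43 and 7.07, and then 4.40, 4.29, 4.35, 3.91 and 3.78. All 20 arrays were well above background. The smallest gap within a slide was 0.60, on the slide of the weak array (−0.60), and the largest in mice labelled WT was −3.84.

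The intracellular products were lower too. *Vpreb3* (chr10:75412326-75412385), which binds immunoglobulin chains during their assembly, averaged 6.10 ± 0.82 and 0.86 ± 0.39 in mice labelled WT and 6.13 ± 0.73 and 0.36 ± 0.70 in those labelled Il10-/- (SD, n = 5). Its differences were −5.24 (SE 0.43), 37.7-fold, and −5.77 (SE 0.41), 54.7-fold, with 4 of 5 and 2 of 5 irradiated arrays well above background. *Fcrla* (chr1:172848103-172848162), an Fc receptor-like protein of the endoplasmic reticulum, read 5.64, 5.51, 5.44, 4.19 and 3.85 in unirradiated and 1.02, 0.47, 1.44, 1.25 and 1.88 in irradiated mice labelled WT. The Il10-/- arrays read 4.63, 4.72, 4.93, 5.04 and 3.44, and then 0.58, 0.65, 0.22, −0.56 and −0.15. The differences were −3.71 (SE 0.45), 13.1-fold, and −4.41 (SE 0.35), 21.2-fold, with 5 of 5 and 2 of 5 irradiated arrays well above background.

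Promoter windows from RefSeq (GRCm38.p6, 250 bases before to 50 after the start of the gene) were matched for 8 of the 10 genes. The octamer bound by OCT factors, ATGCAAAT or ATTTGCAT on the other strand, was found in 2 of the 8, *Ccr6* and *Vpreb3*, and in 1.74% of 32851 promoters. Both windows are printed because the genes were among those with the largest differences, with the octamer in capitals, 68 bases before the start of *Ccr6* (chr17:8235793-8236092, plus strand) and 45 before that of *Vpreb3* (chr10:75948050-75948349, plus strand).
*Ccr6*: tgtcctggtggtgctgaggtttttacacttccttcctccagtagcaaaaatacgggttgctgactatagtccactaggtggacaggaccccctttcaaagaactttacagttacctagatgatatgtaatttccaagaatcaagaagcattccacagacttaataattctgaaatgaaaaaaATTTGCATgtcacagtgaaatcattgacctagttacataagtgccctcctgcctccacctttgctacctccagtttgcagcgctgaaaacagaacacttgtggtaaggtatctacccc
*Vpreb3*: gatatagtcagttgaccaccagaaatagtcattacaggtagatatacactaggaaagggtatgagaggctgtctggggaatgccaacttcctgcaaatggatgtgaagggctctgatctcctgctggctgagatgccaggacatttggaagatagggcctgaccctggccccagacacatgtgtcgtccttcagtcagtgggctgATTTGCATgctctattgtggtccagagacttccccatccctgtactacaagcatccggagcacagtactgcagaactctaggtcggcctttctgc
The E-box CAGGTG, searched on both strands like the sites that follow, stood in 5 of the 8 windows (*Fcmr*, *Fcer2a*, *Cr2*, *Tnfrsf13c* and *Fcrla*) against 20.2% of all. The ETS type site GGAAGT stood in 4 of 8 (*Ccr6*, *Fcer2a*, *Cr2* and *Vpreb3*) against 23.8%. The core of the EBF1 site, CCCNNGGG, was in 0 of 8, against 13.7%. The motifs were chosen after the results were known. A match is a description of these letters only.

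The difference between genotypes can be tested, since the choice of genes used the difference between doses. Without irradiation, none of the 10 met the call under any scaling, but the size of the differences depended on the scaling. The differences (Il10-/- minus WT) ran from −0.50 for *Fcer2a* to 0.79 for *Ccr6*, and 7 were negative. The median over all features was 0.36, a shift that other scalings removed (−0.07 with the 75th percentile of each array). The adjusted p ran from 0.33 to 0.969 (limma), and the groups overlapped for all 10. None of the 10 had an unadjusted p under 0.05 in the main scaling, against 2991 of all 18587 features. Of all features, 0.845% were called. *Cr2* and *Siglecg* (both −0.48) were lower on 5 of 5 slides in mice labelled Il10-/-. The share of all features that were so was not computed, and nothing is read from this. Under the 75th percentile, quantile normalization, reference scaling, normexp and the authors' table, 4, 5, 3, 5 and 3 of the genes had an unadjusted p under 0.05, all of them lower in mice labelled Il10-/-. *Fcmr*, *Cr2* and *Siglecg* were among them each time. The share of all features with such a p was not computed for these settings, so nothing is read from the counts. With the 75th percentile *Fcmr* was −0.81 (adjusted p = 0.218), *Cr2* −0.83 (adjusted p = 0.204) and *Siglecg* −0.83 (adjusted p = 0.202, limma). For *Ccr6* in the main scaling the interval of the difference ran from −0.07 to 1.65 (adjusted p = 0.33, limma), and its highest value of 2.05 within a slide came from the slide of the weak array labelled WT.

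After irradiation, *Fcmr* and *Ly6d* were lower in mice labelled Il10-/-, by a little over 1 log2 unit in the main scaling, but neither met the call. The difference of *Fcmr* was −1.13 (SE 0.26, 95% interval −1.69 to −0.57), 2.19-fold, with an adjusted p = 0.314 (limma). That of *Ly6d* was −1.05 (SE 0.22, −1.54 to −0.56), 2.07-fold, with the same adjusted p. For both, all 5 arrays labelled Il10-/- lay below all 5 labelled WT, as groups without overlap did for 2.96% of all features in either direction. *Fcrla* was lower by 1.06 on average (−1.06, SE 0.32, adjusted p = 0.366, limma), on 4 of 5 slides. Its probe was well above background on 5 of 5 irradiated arrays labelled WT but only 2 of 5 labelled Il10-/-. The other 7 genes differed by −0.50 to 0.44, and 0.00538% of all features, a single one, were called. With replicates 1 and 2 averaged, the differences were −1.27 for *Fcmr*, −1.15 for *Ly6d* and −1.30 for *Fcrla*, each with an adjusted p = 0.658 (limma). With normexp correction and quantile normalization the differences were smaller, at −0.40 for *Fcmr*, −0.74 for *Ly6d* and −0.20 for *Fcrla*, with adjusted p = 0.182, 0.149 and 0.392 (limma). *Tnfrsf13c* and *Fcer2a* were not well above background on any irradiated array labelled Il10-/-, so their differences at 7 Gy (−0.34 and 0.25) carry no level.

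**Figure D3:**
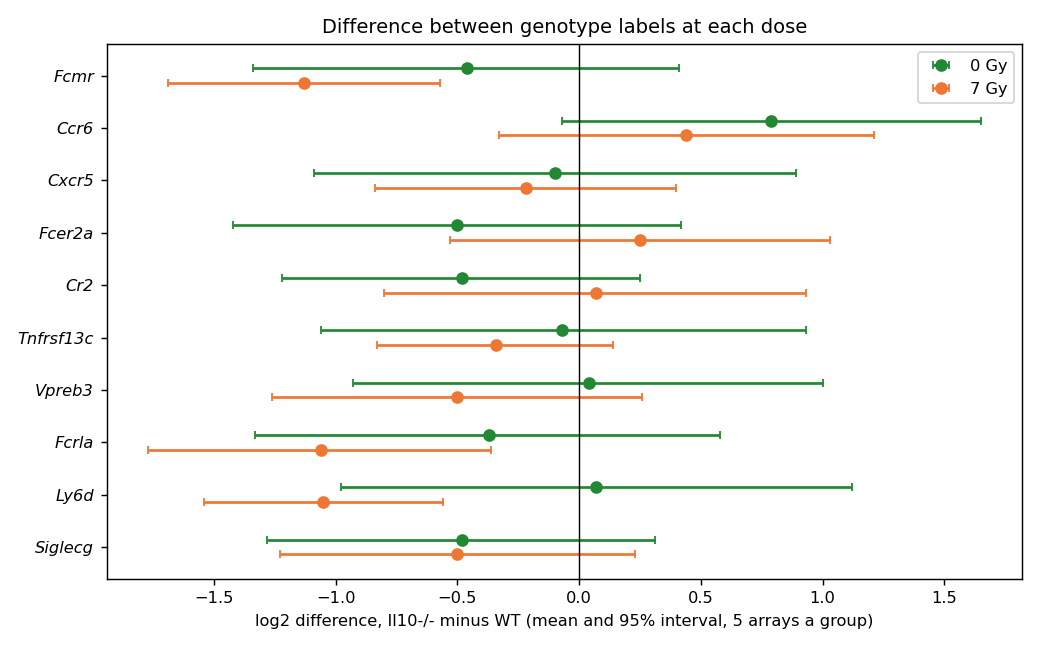
Log2 difference between the genotype labels (horizontal axis, Il10-/- minus WT) of each gene at 0 Gy and 7 Gy, as mean and 95% interval (5 arrays a group). All intervals at 0 Gy include 0, and those at 7 Gy exclude it for Fcmr (−1.13), Fcrla (−1.06) and Ly6d (−1.05), none of which met the call over all features. At 7 Gy, 2066 of all 18587 features had an unadjusted p under 0.05 (limma).

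*Fcmr*, *Fcrla* and *Cr2* lie on chromosome 1, as does *Il10*. The *Fcmr* probe stands 0.144 Mb from the *Il10* probe (mm9, chr1:132920943-132921002), that of *Fcrla* 39.9 Mb and that of *Cr2* 64 Mb. The part of DNA that came with the targeted allele in the difference of *Fcmr* was not tested.

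The radiation response itself did not differ detectably between the genotypes. The interaction ran from −1.12 for *Ly6d* (SE 0.58, 95% interval −2.33 to 0.09, adjusted p = 0.688, limma) to 0.55 for *Cr2* (SE 0.49, −0.46 to 1.57, adjusted p = 0.781), leaving out *Fcer2a* and *Tnfrsf13c*, whose irradiated level on the arrays labelled Il10-/- is only a bound. None of the 10 was called, and the share of all features called was 0%, with 1301 of 18587 at an unadjusted p under 0.05. The intervals were wide, and for all 8 of these genes they included a difference of 1 log2 unit between the responses. The sign depended on the setting: 8 of the 10 were negative in the main setting and 2 with normexp correction and quantile normalization. In that setting *Fcer2a* and *Cr2* had an unadjusted p under 0.05, as *Fcer2a* had with quantile normalization alone. The lowest adjusted p of the 10 was 0.566 and 0.694 in these settings (limma).

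The genes varied together between the arrays of a group. In the unirradiated mice labelled WT, replicate 5, the weak array, was the lowest for 9 of the 10 and replicate 2 the highest for 9. Reference scaling raised replicate 5 by 1.12, while its mean deviation in the main scaling was −1.06, so its place depends on the scaling. The mean over the genes in these mice was 6.11, 6.26, 6.05, 5.08 and 4.55 in replicates 1 to 5 in the main scaling. Lower values on replicates 4 and 5 were not particular to the 10 genes. In the same order, neutrophil markers averaged 7.91, 7.92, 7.41, 6.60 and 6.23, and monocyte markers 4.94, 4.90, 4.76, 3.21 and 3.11. Platelet (8.59) and erythroid markers (7.74) were instead highest on replicate 4. In the unirradiated mice labelled Il10-/- the mean over the 10 genes was 5.45, 5.55, 5.57, 6.00 and 4.68, with replicate 4 the highest for all 10 genes and replicate 5 the lowest for 9. That replicate 5 was not a weak array. Its mean of the 8 B-cell markers was also the lowest of its group (4.04, against 4.65 to 4.99). So were its means of natural killer cell markers (4.05) and plasma cell markers (1.95). Its mean of 11 T-cell markers was 5.73 in a group range of 5.72 to 6.00, and those of neutrophil (9.92) and erythroid markers (7.64) were the highest. The cause was not tested. Among the 10 genes *Ccr6* was the exception, at 5.83 on that array, above its group mean of 5.60.

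After irradiation the means over the genes were close together, at 1.55, 1.20, 1.99, 2.02 and 1.87 in mice labelled WT and 1.31, 1.27, 1.32, 1.44 and 1.28 in those labelled Il10-/-. In mice labelled WT, replicate 2 was the lowest for 8 of the 10. Single genes still went separate ways: *Vpreb3* ranged from −0.38 to 1.31 and *Siglecg* from 1.03 to 2.38 in mice labelled Il10-/-. The median SD over the genes was 0.80 and 0.47 in mice labelled WT at 0 and 7 Gy and 0.55 and 0.43 in those labelled Il10-/-, and 0.63 without the weak array in the first.

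**Figure D4:**
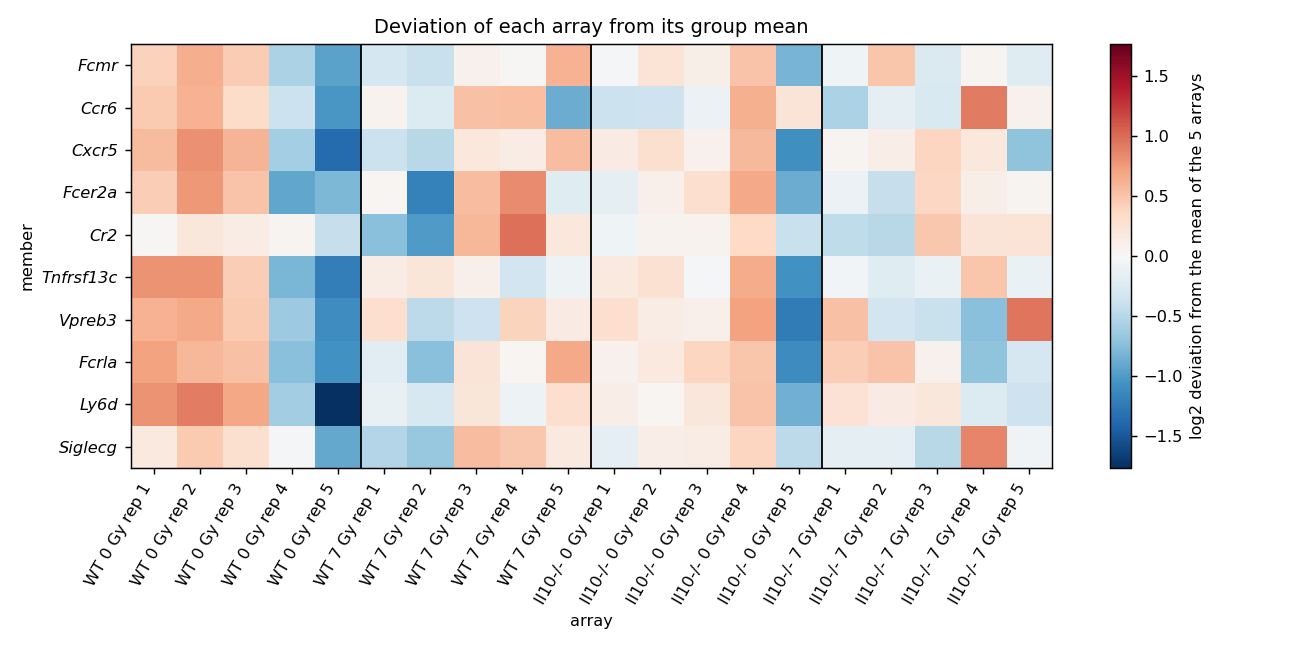
Deviation of each array (columns, 4 groups of 5 replicates) from the mean of its group for each gene (rows), in log2 units by colour. In the main scaling, unirradiated replicate 5 is low across nearly all genes in both genotypes (mean deviations −1.06 and −0.77). The first of these is the weak array, which reference scaling raised by 1.12. Irradiated replicate 2 of the mice labelled WT is low by less (−0.53).

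By pattern over the 20 arrays, each gene centred on its own mean, the closest pairs among the 10 were *Cr2* and *Siglecg* (root-mean-square difference 0.41), *Cxcr5* and *Ly6d* (0.42) and *Fcmr* and *Tnfrsf13c* (0.48). The most distant were *Ccr6* and *Siglecg*, at 1.83. Among 17541 candidate genes outside the set, the closest to the mean of the 10 were an unnamed transcript (0.32), *H2-Ob* (0.35), which encodes a chain of the class II cofactor H2-O, *Bcl11a* (0.38) and *Spib* (0.41), transcription factors of lymphoid cells, and *B3gnt5* (0.38), a glycosyltransferase. The nearest gene to a single member was *Ms4a1* (CD20) to *Ly6d*, at 0.19. *Bcl11a* was nearest to *Tnfrsf13c* (0.29), *Fcmr* (0.55) and *Vpreb3* (0.68). For the others the nearest were *B3gnt8* to *Cxcr5* (0.32), *St8sia1* to *Cr2* (0.40), *Xkrx* to *Fcer2a* (0.41), *Dapl1* to *Ccr6* (0.67), and unnamed transcripts to *Siglecg* (0.32) and *Fcrla* (0.41). These are descriptions over arrays that share the dose groups.

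Other B-cell surface proteins were lower as well, by less. Of 18 on the array 16 were tested, and 9 were called lower and none higher in each genotype, with medians of −1.8 and −1.67. The largest differences were those of *Btla* in mice labelled WT (−3.39), an inhibitory receptor, and *Cd79a* in those labelled Il10-/- (−3.83), a signalling chain of the B-cell receptor. With replicates 1 and 2 averaged, 7 were called in each. Of the 7 tested B-cell markers 6 were called lower in each genotype, the largest being *Ebf1* (−3.85) and *Cd79a* (−3.83). The mean of the 8 B-cell markers spanned 3.79 to 5.45 at 0 Gy and 1.73 to 2.55 at 7 Gy for the WT label, and 4.04 to 4.99 and 1.48 to 2.11 for the Il10-/- label, so these markers moved with the 10 genes, and their part in the result was not tested. Of 4 tested plasma cell markers none was called in mice labelled WT (median −0.67), and *Mzb1* was called lower (−1.90) in those labelled Il10-/- (median −1.13).

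Other receptors for homing and egress were less uniform. Of 13 tested, 3 were called lower in mice labelled WT (*Ccr7*, *Cxcr4* and *Gpr183*) and 6 in those labelled Il10-/-, with medians of −1.07 and −0.85. The counts depended on the setting: with the 75th percentile and with quantile normalization they were 6 and 6, with 1 fit of all groups 4 and 4, and with the slide block or with replicates 1 and 2 averaged 2 and 5. *Ccr7*, which guides cells into the T zone, had the largest difference in both (−3.71 and −3.42). The call of *Cxcr4* in mice labelled WT was lost when any of 9 of the 10 arrays was left out. T-cell markers were called lower for 3 of 10 in each genotype (*Cd8a*, *Tcf7* and *Lef1*), and none of 7 neutrophil markers was called in either response, though 4 of them were higher without irradiation in mice labelled Il10-/-, led by *Retnlg* (2.88). Genes related to the 10 by sequence family were not lower as a list: the 10 tested relatives had medians of 0.23 and 0.05. None of them was called in either response. With the shares of all features called given above, few calls among 10 genes would be seen anyway, so nothing is read from that count. *Cd33*, a lectin of the Siglec family, was called higher without irradiation in mice labelled Il10-/- (1.73), a call lost under 7 of 9 alternatives. *Siglec1*, a macrophage lectin of that family, did not pass the filters. It was not well above background on any unirradiated array, and was so on 5 of 5 irradiated arrays labelled WT and 3 of 5 labelled Il10-/-. Genes named here beyond the largest of each list were chosen after their values were seen.

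**Figure D5:**
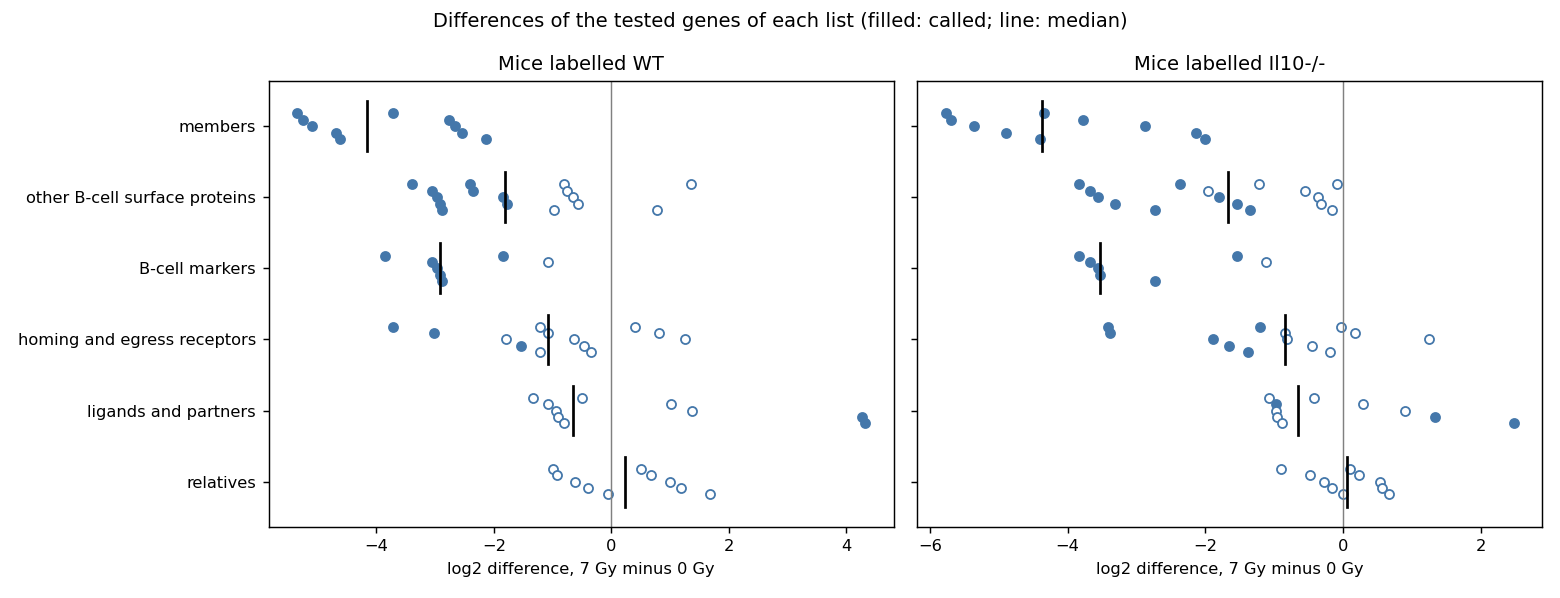
Log2 difference between 7 Gy and 0 Gy (horizontal axis) of the tested genes of each list, by genotype label. Each circle is a gene, filled where called, and the line is the median of the list, which is −4.16 and −4.38 for the 10 genes, −1.8 and −1.67 for other B-cell surface proteins and 0.23 and 0.05 for relatives.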

How the data were processed

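RNA from whole blood of 20 mice, purified after globin reduction, was hybridised to Agilent 4x44K mouse arrays. For each array the authors deposited Feature Extraction output, from which the processed signal, an intensity per spot that the software had background-corrected, was used. The labels and methods name version 10.7 and the file headers 12.0.2.2. A log2 table that the authors deposited served as an alternative. Intensities were converted to log2, outlier spots left out, repeated spots averaged, and the array median over 39429 non-control probes subtracted. Probes marked on 25% or more of arrays, or differing by 1.5-fold from their median on fewer than 20% of arrays, were removed, leaving 18587 features. Contrasts were fitted with limma 3.58.1 in R 4.3.3, with moderated variances and Benjamini-Hochberg adjustment over all features, and calls needed p below 0.001 and a rate below 10%. Radiation responses used the 10 arrays of 1 genotype, genotype differences the 10 arrays of 1 dose, and the interaction all 20. Python 3.11.15 (pandas 2.3.3, numpy 2.4.6, scipy 1.17.1) gave the other values. The fits were tested on simulated data.

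Samples were grouped by title. The brighter probe passing the background filter stood for a gene. The genes, the lists and the motifs were chosen with earlier results of these data known. Of each list, counts of called genes and the largest called rise and fall are given, and likeness was measured as root-mean-square difference. Positions are those of the array files (mm9), and exon positions were not used here. Gene names are those of the files. The series describes replicates as individual mice. Replicate numbers mark a shared slide, and arrays with the same number were checked for shared deviations: the mean correlation over features was 0.22 and 0.41 for 2 pairs of groups and −0.13 to 0.07 for the others, and 4 of 5 slides at most were over 0.1 in any pair. Alternatives were other scalings, background correction, filters, the mean of all probes, 1 fit of all groups, the slide as a block and leaving out each array. Averaging replicates 1 and 2 was added after seeing the data. The number of arrays and the signal over background limit the precision.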

Additional observations from a re-analysis of the deposited data

Results flagged for a closer look

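Of 40 sets of 5 arrays (10 genes in 4 groups), 3 held an array far from its group, and chance marks about 1 in 20 such sets. *Cr2* was 5.44 on the weak array (WT label, 0 Gy, replicate 5), where the other 4 read 5.87 to 6.04. *Tnfrsf13c* was 0.61 on replicate 4 of the irradiated mice labelled Il10-/-, where the others read −0.09 to 0.07 and none was well above background. *Fcrla* was 3.44 on replicate 5 of the unirradiated mice labelled Il10-/-, where the others read 4.63 to 5.04, and the mean of the 10 genes was low on the same array.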

How the results depend on the processing

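None of the 10 genes was called in the comparisons of genotype or of responses under any alternative run, including those that left out 1 array. As a description only, since the genes were chosen on it, all 10 were called lower after irradiation in both genotypes under each. The mean difference over the genes was −2.25 (WT) and −1.92 (Il10-/-) with normexp correction and quantile normalization, −3.65 and −4.11 with replicates 1 and 2 averaged, and −4.15 to −3.72 and −4.32 to −3.99 when arrays were left out. Single responses moved by more than their spread in 10 (WT) and 12 (Il10-/-) of 120 recomputed values each, none in sign. With the slide as a replicate block, *Fcmr* had an adjusted p of 0.158 and *Ly6d* of 0.146 at 7 Gy (limma), and the block changed no call of the genes. Small genotype differences changed sign, with no call at stake, and the cause was not tested. At 0 Gy, in the order 75th percentile, quantile, reference scaling, authors' table and without WT replicate 5, *Vpreb3* was −0.31, −0.44, −0.25, −0.25 and −0.24 (−0.56 with normexp, up to 0.34 without other arrays) and *Ly6d* −0.28, −0.37, −0.21, −0.21 and −0.37 (up to 0.30). *Cxcr5* was 0.17 and *Tnfrsf13c* 0.20 without Il10-/- replicate 5, and 0.02 and 0.08 with replicates averaged. At 7 Gy, *Fcer2a* was −0.01 with normexp and −0.05 without WT replicate 2, and *Cr2* −0.03, −0.02 and −0.07 with the 75th percentile, quantile and normexp settings, −0.18 with all probes averaged, −0.18 (to 0.31 without other arrays) without WT replicate 2 and −0.03 with replicates averaged. The interaction with normexp was 0.62 (*Fcmr*), 0.54 (*Fcrla*), 0.46 (*Vpreb3*), 0.52 (*Tnfrsf13c*), 0.16 (*Cxcr5*) and 0.46 (*Siglecg*). With the 75th percentile, quantile, reference scaling, authors' table and without WT 0 Gy replicate 5 it was 0.14, 0.26, 0.12, 0.11 and 0.22 for *Cxcr5* and 0.24, 0.33, 0.22, 0.22 and 0.21 for *Siglecg*, and for *Tnfrsf13c* 0.17 (quantile), 0.05 (all probes averaged) and 0.03 (without that array), with lowest values of −0.39, −0.23 and −0.55 for *Cxcr5*, *Siglecg* and *Tnfrsf13c* on leaving out other arrays.

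Counts over all features moved more. At baseline 157 were called, against 43, 25, 81, 4, 57 and 66 with the 75th percentile, quantile, reference scaling, normexp, the authors' table and no filter, and 384 with the block. Features called lower in mice labelled WT were 431, against 761, 693, 718, 734 and 720 with the 75th percentile, quantile, reference scaling, authors' table and 1 fit of all groups, and 203 with replicates 1 and 2 averaged, and in those labelled Il10-/- 1091, against 614 with normexp and 453 with replicates averaged. At 7 Gy the counts were 0 to 3. Reference scaling raised the weak WT array by 1.12.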
